A study of Mus musculus with 36 samples.

Results

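The microRNAs of wild-type kidneys of the Pkd2 line were compared between the first and the third day after birth. The comparison used 6 of the 36 small RNA libraries of the study, 3 from postnatal day 1 (P1) and 3 from postnatal day 3 (P3). Of the 1915 mature miRNAs in the count table, 746 had at least 10 reads in at least 3 of the 18 libraries of the Pkd2 line and were tested.

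The study followed collecting duct cysts in mice in which floxed Pkd1 or Pkd2 was deleted by HoxB7-Cre, a transgene active in the ureteric bud lineage that forms the collecting duct. Whole kidneys were taken at P1, P3 and P7, with 3 libraries for each line, age and genotype. The mice called WT here were Pkd2f/f on a C57BL/6 background: they carried the floxed Pkd2 alleles but no Cre, and the labels list no treatment. The KO libraries used for comparison came from Pkd2f/f mice with HoxB7-Cre at P1 and P3, and a further WT set came from Pkd1f/f mice without Cre at the same ages. Total RNA of whole kidney was extracted, so a smaller number of cells of a type and less RNA per cell cannot be told apart. The labels give no sex, litter or batch and do not state whether each library came from a different animal. The p-values therefore measure the spread between these libraries, and age cannot be told apart from litter or batch.

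Mature miRNAs are short RNAs that guide Argonaute proteins to partly complementary messenger RNAs, mainly through the seed, the bases near their 5′ end, and lower the output of those messengers. In the mouse, new nephrons still form for the first days after birth while the tubules already made mature. Several miRNA groups are known for marking these processes: miR-192, miR-194, miR-802, miR-204 and the miR-30 family are rich in tubules, the miR-200 family marks epithelia, and the miRNAs of the imprinted Dlk1-Dio3 domain are known for high levels before birth.

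The sequences of miRNAs with the lowest p-values among those without overlap between the ages are shown first, since several of them share a seed or a kind of locus. They are RefSeq mature sequences with GRCm38.p6 positions, written 5′ to 3′ with the seed, bases 2 to 8, in capitals. RefSeq held a mature sequence for 622 of the 746 tested miRNAs, and for 19 of the 21 miRNAs chosen in this way or called. The first set lies inside annotated small nucleolar or small Cajal body RNAs (snoRNA, scaRNA):
miR-5121: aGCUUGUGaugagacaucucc
miR-3084-5p: gUUGAAGGuuaauuagcagagu
miR-3084-3p: uUCUGCCAgucuccuucagac
miR-677-5p: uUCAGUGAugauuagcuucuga
miR-1843b-3p: cCGAUCGUuccccuccauac

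miR-5121 lies at chr7:45126925-45126945 on the minus strand, inside Snord33 and overlapping an annotated exon of Rpl13a, which encodes a ribosomal protein. The arms of miR-3084 each match both of a pair of loci on the minus strand of chromosome 19. miR-3084-5p lies at chr19:24942276-24942297 in an intron of Cbwd1, inside the snoRNA Gm23658, and at chr19:60774370-60774391 in an intron of Eif3a, inside Snora19, so its reads cannot be assigned to one locus. miR-677-5p lies at chr10:128085291-128085312 on the plus strand in an intron of Atp5b. GENCODE also annotates that locus as a snoRNA. miR-1843b-3p lies at chr1:159340400-159340419 on the plus strand in an intron of Cop1, inside Scarna3a.

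The second set was higher at P3 and includes a pair with 1 seed, miR-497a-5p and miR-195a-5p, whose loci are neighbours on the plus strand of chromosome 11:
miR-497a-5p: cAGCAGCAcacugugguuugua
miR-195a-5p: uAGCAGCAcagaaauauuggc
miR-141-3p: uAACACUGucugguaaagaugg
miR-802-5p: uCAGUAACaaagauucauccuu
miR-547-3p: cUUGGUACaucuuugagugag

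miR-497a-5p is at chr11:70234730-70234751 and miR-195a-5p at chr11:70235062-70235082. The seed AGCAGCA is shared by 6 tested miRNAs, the others being miR-15a-5p, miR-15b-5p, miR-16-5p and miR-322-5p. miR-141-3p (chr6:124717917-124717938, minus strand) shares its seed with miR-200a-3p. miR-802-5p is at chr16:93369737-93369758 on the plus strand and miR-547-3p at chrX:67988383-67988403 on the minus strand, both outside annotated host genes.

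The third set was lower at P3 and comes from imprinted loci, the first 7 from the Dlk1-Dio3 domain and the last 2 from introns of Mest and Igf2:
miR-337-3p: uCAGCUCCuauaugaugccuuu
miR-540-3p: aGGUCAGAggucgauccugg
miR-411-3p: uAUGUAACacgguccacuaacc
miR-299a-3p: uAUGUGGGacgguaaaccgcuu
miR-679-5p: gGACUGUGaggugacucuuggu
miR-134-5p: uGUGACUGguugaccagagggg
miR-409-3p: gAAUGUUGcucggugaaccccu
miR-335-3p: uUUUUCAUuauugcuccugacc
miR-483-5p: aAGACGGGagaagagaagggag

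The 7 Dlk1-Dio3 sequences have 7 seeds. They are transcribed in 1 direction, from miR-337-3p at chr12:109585850-109585871 to miR-409-3p at chr12:109743204-109743225, both on the plus strand. Within the domain, miR-134-5p overlaps an exon and miR-409-3p an intron of the noncoding gene Mirg. miR-335-3p lies in an intron of Mest at chr6:30741354-30741375 on the plus strand, and miR-483-5p in an intron of Igf2, the growth factor gene, at chr7:142654968-142654989 on the minus strand.

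The 6 libraries held 21859844 to 27519491 miRNA reads, with 972 to 1199 mature miRNAs detected in each (1 read or more). Levels are given as counts per 1000000 reads (CPM) scaled by trimmed mean of M values (TMM) factors, which can carry the summed CPM of a library past its nominal total. A count of 3 reads, used as the detection floor, was worth 0.0834 to 0.248 CPM. Replicates were closely correlated (Pearson's r of log2 counts 0.979 to 0.998 across miRNAs, which are not independent), but pairs between the ages reached r = 0.996. A pair of libraries stood apart. Library 1 at P3 had 71.9% of its reads in miR-10a-5p and miR-10b-5p, against 37.03% and 38.51% in libraries 2 and 3, and a TMM factor of 0.544 against 1.31 and 1.21. Library 3 at P1 had 360 CPM of the liver miRNA miR-122, against 13.9 and 11.9 CPM in libraries 1 and 2. It also had 117 CPM of the endocrine list, against 52.7 and 44.6 CPM. For many groups the median or the count of members with one of these libraries left out is also given.

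**Figure D1:**
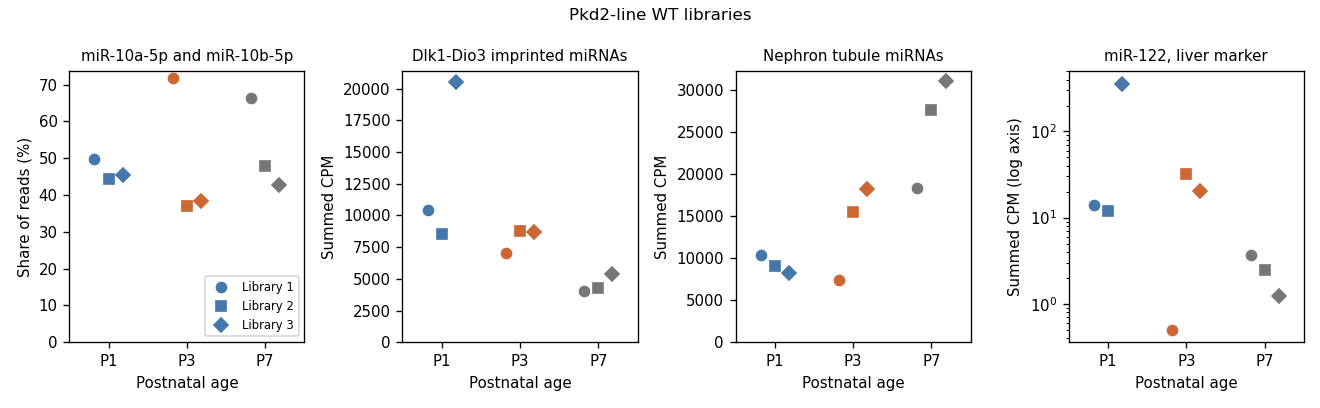
Each panel plots the WT libraries of the Pkd2 line at P1, P3 and P7 (x axis), with one symbol for each library number. The y axes are the share of reads in miR-10a-5p and miR-10b-5p (%) and the summed CPM of the Dlk1-Dio3 miRNAs, of the nephron tubule miRNAs and, on a log axis, of miR-122. Library 1 at P3 stands at 71.9% in the first panel, and library 3 at P1 stands at 20540 CPM in the second and 360 CPM in the fourth.

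The tissue label was checked against markers. The kidney tubule miRNAs were present in every library, at summed levels of 8183 to 10350 CPM at P1 and 7352 to 18140 CPM at P3. miR-192-5p, the most abundant of them, stood at 7282 to 9301 CPM at P1. Muscle miRNAs summed to 23.0 to 58.9 CPM. Of the 22 miRNAs listed for adrenal and gonad, 12 had no read in the P1 libraries and 12 had none in the P3 libraries. The sum of that list was low but did not overlap between the ages, at 0.838 to 0.973 CPM at P1 and 1.73 to 2.03 CPM at P3. Vascular and smooth muscle miRNAs summed to 56480 to 61210 CPM at P1 and to 83350 and 84360 CPM in libraries 2 and 3 at P3, but to 43630 CPM in library 1 at P3. Erythroid miRNAs (3631 to 6140 CPM) and leukocyte miRNAs (1010 to 1339 CPM) overlapped between the ages.

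The difference between P3 and P1 was small relative to the spread between libraries. By edgeR's quasi-likelihood test 2 of 746 miRNAs, 0.268%, had an adjusted p under 0.05, both higher at P3, and none was called lower. DESeq2 called 17, with 8 higher and 9 lower. At an unadjusted p under 0.05 there were 106 miRNAs, where chance would give 37.3 on average. The tests are not independent, so a count by chance can lie well away from that average. Of the 106, 47 (6.3%) were higher and 59 (7.91%) were lower at P3. With a 2-fold change in addition, which is the criterion the study used for genotype, 16 (2.14%) were higher and 26 (3.49%) lower. Without library 3 at P1 only 41 miRNAs had an unadjusted p under 0.05, close to the 37.3 of chance, with 27 higher and 14 lower. The 3 libraries of one age lay wholly above those of the other for 59 miRNAs higher at P3 (7.91%) and 76 lower (10.2%). When the counts were scaled by library totals alone, the median log2 difference over all miRNAs moved from 0.04 to -0.28 and the split at unadjusted p under 0.05 became 5 higher and 66 lower. Differences below are therefore best read relative to the median of all miRNAs.

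miR-5121 had the lowest p of all. It stood at 0.929, 1.26 and 1.06 CPM in the P1 libraries and at 3.89, 2.27 and 4.64 CPM at P3. The ages did not overlap, and the highest P1 library was well under the lowest P3 library. miR-5121 rose by 1.73 ± 0.26 (log2, SE from the fit of 18 libraries, with 3 compared against 3; adjusted p = 0.00505, edgeR). At P7 it was again at 0.950 to 1.08 CPM, the range of P1. The call was lost without library 3 at P3 (adjusted p = 0.0604) and with the 6 compared libraries alone (adjusted p = 0.263). Over all alternatives the adjusted p ran from 4.82e-06 to 0.412.

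miR-3084-5p rose as well, at a level close to the floor. It had 3 reads in each P1 library and 6, 12 and 17 reads at P3, which is 0.0834 to 0.0996 CPM against 0.419 to 0.543 CPM. The ratio of its normalised reads was 5.38, with a 95% interval of 2.53 to 12.7 that covers counting error only. The fitted difference was 2.36 ± 0.39 (log2, SE; adjusted p = 0.00541, edgeR), and the call was lost without library 3 at P1 (adjusted p = 0.0598) or library 3 at P3 (adjusted p = 0.0604). The other arm of the hairpin, miR-3084-3p, stood at 2.02, 2.10 and 1.70 CPM at P1 and at 4.55, 3.57 and 2.88 CPM at P3. Its libraries did not overlap either, with a difference of 0.90 ± 0.28 that was not called (adjusted p = 0.184).

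The 19 remaining miRNAs, chosen by low p and not by size, did not pass the adjusted threshold in edgeR (adjusted p from 0.0591 to 0.184), so their values are given as levels. DESeq2 called 15 of them, at adjusted p-values from 0.00433 to 0.0478. All of them had an unadjusted p under 0.05 and ages that did not overlap, as the choice required.

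**Figure D2:**
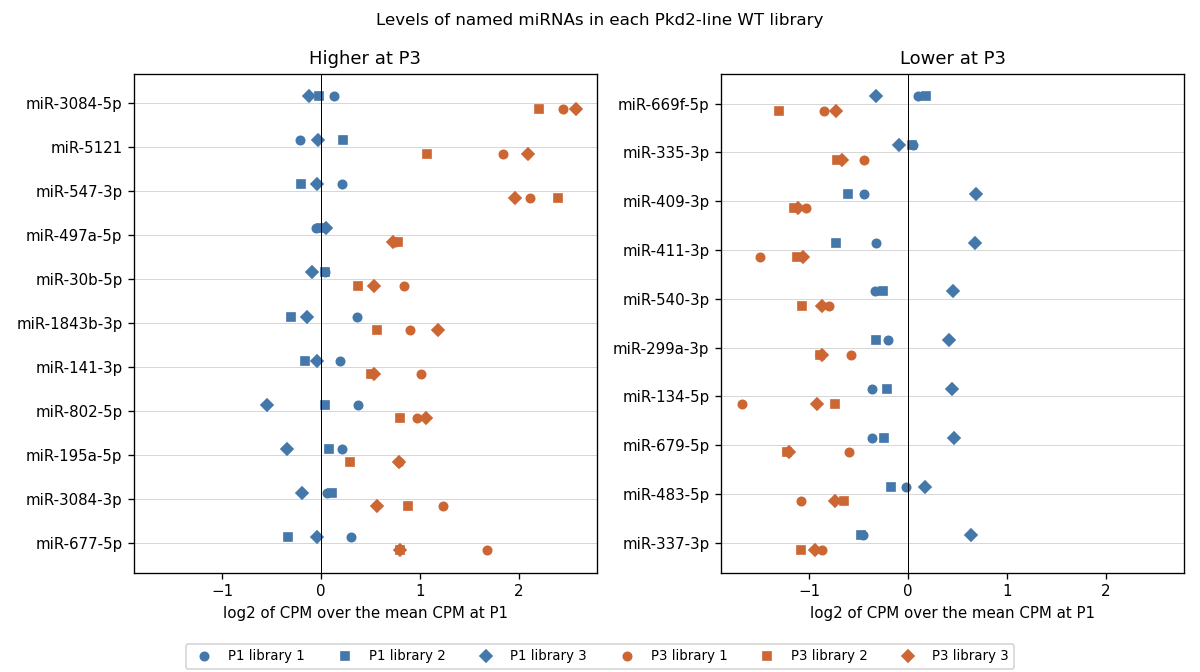
The level of each miRNA named for the age comparison in each WT library of the Pkd2 line, as log2 of its CPM over its mean CPM at P1 (x axis), with P1 libraries in blue, P3 libraries in orange and one symbol for each library number. The P1 and P3 libraries do not overlap for any miRNA shown, and library 3 at P1 is the highest point for 8 of the 10 miRNAs on the right.

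Both called miRNAs lie within snoRNAs, and so do others that were higher at P3. miR-677-5p stood at 11.5, 7.34 and 9.01 CPM at P1 and at 29.8, 16.2 and 16.1 CPM at P3 (log2 difference 1.15 ± 0.36, adjusted p = 0.184). miR-1843b-3p stood at 1.43, 0.898 and 1.00 CPM at P1 and at 2.07, 1.64 and 2.53 CPM at P3 (0.91 ± 0.24, adjusted p = 0.162). Over the whole table, 18 of the 622 miRNAs with a position lay inside an annotated snoRNA or scaRNA on the same strand, a set chosen after its members' values were seen. Of these 18, 17 were higher at P3, 7 of them at an unadjusted p under 0.05, and none was lower at that p. Of the other 604, 328 were higher, 34 of them at that p, and 55 were lower at that p. The 7 include miR-5121, both arms of miR-3084, miR-677-5p and miR-1843b-3p, which were seen before the set was drawn, so the counts are no separate support. The median log2 difference of the 18 was 0.46, against 0.03 over the other 604. The median was 0.51 without library 3 at P1 and 0.37 without library 1 at P3. The exception was miR-1843a-3p, at 1.06 ± 0.02 CPM (SD, n = 3) at P1 and 0.789 ± 0.25 CPM at P3. Where a miRNA lies inside a snoRNA, counts of mature sequences do not tell its reads from fragments of the snoRNA. The share of such fragments was not tested.

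The nephron tubule miRNAs were mostly higher at P3. Of 9 tested, 7 were higher and 3 of these had an unadjusted p under 0.05, with a median log2 difference of 0.39 against 0.04 over all 746. Under library totals alone this median was 0.15, against -0.28 over all. miR-802-5p, a tubule and liver miRNA, stood at 85.9, 68.3 and 45.4 CPM at P1 and at 131, 116 and 139 CPM at P3 (0.95 ± 0.27, adjusted p = 0.163). miR-194-5p, made in clusters with miR-192 and miR-215, stood at 434, 353 and 340 CPM at P1 and at 477, 564 and 713 CPM at P3 (0.64 ± 0.21, adjusted p = 0.184). Neither overlapped between the ages. miR-192-5p did overlap, since library 1 at P3 had 6200 CPM, under every P1 library, while libraries 2 and 3 had 13970 and 16440 CPM. miR-204-5p overlapped in the same way, at 484 to 584 CPM at P1 and at 525, 730 and 809 CPM at P3. Without library 1 at P3 the median was 0.54, and 5 of the 9 were higher at an unadjusted p under 0.05. Over all 746 the median was then -0.05, with 60 higher and 65 lower at that p. Without library 3 at P1 the tubule median was 0.485, with 2 members higher at that p. Over all 746 it was then 0.07, with 27 higher and 14 lower.

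The miR-30 family, which is among the most abundant of kidney miRNAs, was slightly higher at P3 in 10 of 11 members, with a median of 0.29. The median became -0.02 under library totals alone, against -0.28 over all miRNAs, and 0.16 without library 1 at P3. The summed level of the family was 142900 CPM in that library against 79780 and 92910 CPM in libraries 2 and 3. Its member with the lowest p was miR-30b-5p. It stood at 1639, 1643 and 1496 CPM at P1 and at 2841, 2057 and 2314 CPM at P3, without overlap (0.59 ± 0.15, adjusted p = 0.151). miR-30a-5p (42980, 42600 and 39230 CPM at P1) and miR-30e-5p (22500, 18960 and 19060 CPM) were far more abundant but overlapped, at 40400 to 60170 CPM and 18280 to 42710 CPM at P3. For both, library 1 was the highest at P3.

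All 10 miRNAs of the epithelial miR-200 family were higher at P3, 2 of them at an unadjusted p under 0.05. The median of 0.28 became -0.10 under library totals alone, against -0.28 over all miRNAs. It was 0.24 without library 3 at P1 and 0.25 without library 1 at P3, each with 1 member at an unadjusted p under 0.05. Without both libraries it was 0.205, with no member at that p. miR-141-3p stood at 436, 341 and 370 CPM at P1 and at 774, 543 and 555 CPM at P3 (0.71 ± 0.20, adjusted p = 0.163). Its difference was 0.68 without library 3 at P1, 0.51 without library 1 at P3 and 0.47 without both. miR-200a-3p, which shares its seed, differed by 0.21 ± 0.14 (adjusted p = 0.515). The miRNAs of this pair were not tested against each other.

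In the miR-15/16 family, which includes miR-195 and miR-497 and is known for restraining the cell cycle, 10 of 11 members were higher at P3 and 2 had an unadjusted p under 0.05. The family median of 0.24 became -0.07 under library totals alone, against -0.28 over all miRNAs. It was 0.20 without library 3 at P1 and 0.22 without library 1 at P3, each with 2 members at an unadjusted p under 0.05. Without both libraries it was 0.17, with 1 member at that p. miR-497a-5p had closely spaced libraries at each age, at 148, 153 and 158 CPM at P1 and at 258, 264 and 254 CPM at P3. Its difference of 0.76 ± 0.18 was not called by edgeR with the 18 libraries (adjusted p = 0.106). It was called by DESeq2 (adjusted p = 0.00433) and by edgeR with the 9 WT libraries alone (adjusted p = 0.0425). miR-195a-5p, from the same locus, stood at 216, 196 and 146 CPM at P1 and at 320, 227 and 321 CPM at P3 (0.64 ± 0.20, adjusted p = 0.184). Its difference was 0.49 without library 3 at P1, 0.55 without library 1 at P3 and 0.39 without both. Of the other members with the AGCAGCA seed, miR-16-5p differed by 0.38, miR-15a-5p by 0.30 and miR-15b-5p by 0.12. miR-322-5p differed by 0.77 (unadjusted p = 0.14), or by 0.06 without library 1 at P3.

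A few other groups contributed to the miRNAs higher at P3. In the miR-23/27/24 clusters 3 of 11 members had an unadjusted p under 0.05, all higher. The median of 0.35 became 0.02 under library totals alone, against -0.28 over all miRNAs. Without library 3 at P1 none of them had such a p, and without library 1 at P3 the median was 0.16 with 2 such members. miR-24-3p was among them (0.40 ± 0.16, adjusted p = 0.301). In the miR-181 family 2 of 9 had an unadjusted p under 0.05, both higher. The median of 0.28 became -0.05 under library totals alone, against -0.28 over all miRNAs. Without library 3 at P1 it was 0.22 with 1 such member, and without library 1 at P3 it was 0.32 with 4. miR-181a-5p, one of the 6 most abundant miRNAs, stood at 28370, 21840 and 18930 CPM at P1 and at 29030, 31510 and 34780 CPM at P3 (0.46 ± 0.17, adjusted p = 0.263). miR-547-3p, an X-linked miRNA on the adrenal and gonad list, had the largest difference of the named miRNAs that were not called. It rested on 6, 5 and 6 reads at P1 and 9, 26 and 21 reads at P3, or 0.150 to 0.199 CPM against 0.671 to 0.909 CPM (2.15 ± 0.46, adjusted p = 0.0591). Of the 3 tested members of the adrenal and gonad list, 2 were higher at an unadjusted p under 0.05.

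No member of the let-7 family (22 tested), the miR-17/92 cluster and its paralogs (25), the miR-99, miR-100 and miR-125 families (11), the cluster of miR-322, miR-503, miR-542 and miR-450 (13) or the miR-29 family (6) reached an unadjusted p under 0.05. The medians of the first 4 lay between -0.00123 and 0.0733. The miR-29 median of 0.38 became -0.08 without library 1 at P3. The miR-183 cluster, made of miR-183, miR-96 and miR-182, had a median of 0.32 and 1 member of 5 that was lower at an unadjusted p under 0.05. Its median was -0.36 without library 1 at P3. The lists of miR-378, miR-199 and miR-214, miR-221 and miR-222, miR-21a, miR-31, miR-210, miR-148 and miR-152, and miR-34 and miR-449 had no member at an unadjusted p under 0.05, and their medians ran from -0.30 for miR-210, a hypoxia miRNA, to 0.34 for miR-21a. Several of these medians moved without library 1 at P3. That of miR-34 and miR-449 was then -0.48 with 2 members lower at an unadjusted p under 0.05, and that of miR-199 and miR-214 was 0.16 with 2 higher. The miR-31 median changed from 0.14 to -0.32, the miR-221 and miR-222 median from 0.30 to 0.01, and the miR-17/92 median became -0.21.

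**Figure D3:**
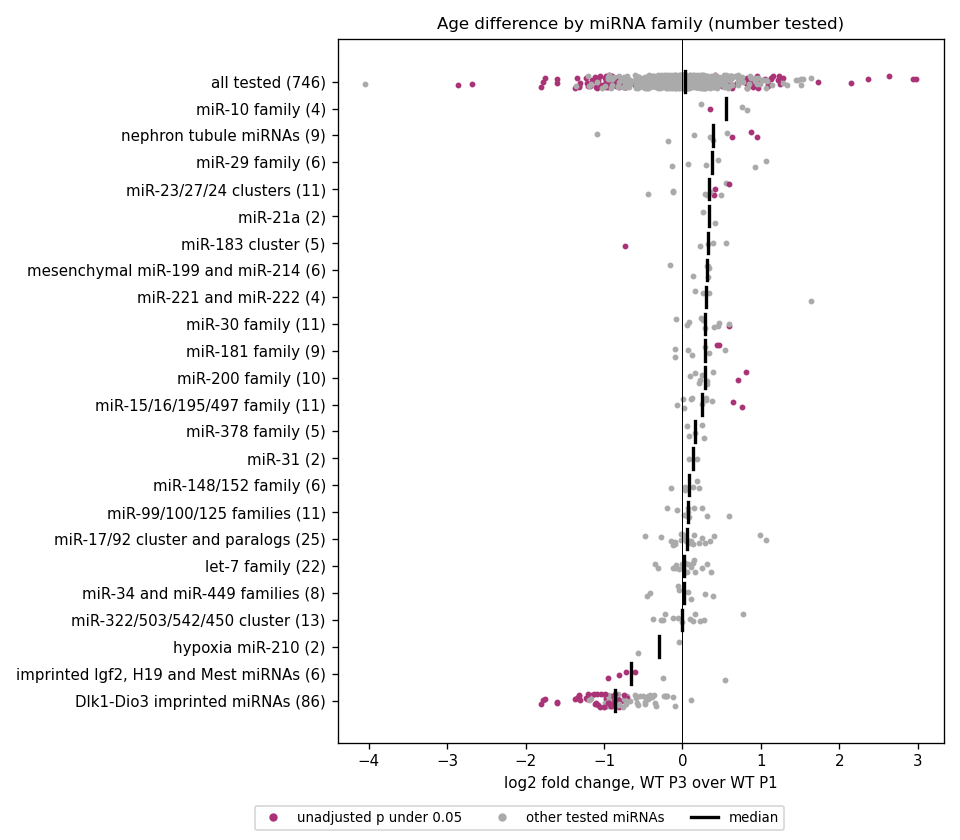
Each point is a miRNA, placed by its log2 fold change of WT P3 over WT P1 (x axis), in rows for each family with the number tested in parentheses. Bars are medians, and coloured points have an unadjusted p under 0.05. The Dlk1-Dio3 (-0.87) and Igf2, H19 and Mest (-0.66) medians lie furthest below that of all tested miRNAs (0.04). Small positive medians such as those of the miR-30 (0.29) and miR-200 (0.28) families change sign under library totals alone (-0.02 and -0.10). The median of all tested miRNAs is then -0.28, still below both.

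Most of the miRNAs that were lower at P3 at an unadjusted p under 0.05 came from the Dlk1-Dio3 domain, an imprinted region whose miRNAs are expressed from the maternal chromosome. Of its 112 mature miRNAs in the table, 86 were tested and 85 of these were lower at P3. None was called by edgeR at an adjusted p under 0.05 with all libraries. DESeq2 called 6 lower, and edgeR called miR-409-5p lower without library 1 at P3 (adjusted p = 0.0194) and under library totals alone (adjusted p = 0.0476). At an unadjusted p under 0.05, 44 were lower and none was higher, so the domain held 44 of the 59 miRNAs lower at that p in the whole table. In 35 the ages did not overlap. The median log2 difference was -0.87, against 0.04 over all miRNAs. Under library totals alone it was -1.16, against -0.28 over all miRNAs. The 82 members with a RefSeq position lay within chr12:109563744-109747949.

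The size of this difference rested largely on 1 library. The summed level of the domain was 10390, 8567 and 20540 CPM in the P1 libraries and 7013, 8748 and 8653 CPM at P3. The sums thus overlapped between the ages, and library 3 at P1, which also carried the liver and endocrine miRNAs, was the highest of the 6. Without it the median was -0.35 and 7 members were lower at an unadjusted p under 0.05. Without library 1 at P3 the median was -0.89 with 45 such members, and without both it was -0.47 with 10. Over all miRNAs 14, 65 and 27 were lower at that p in these fits, in the same order. The medians over all miRNAs were 0.07, -0.05 and -0.01. The part of the liver and endocrine signal in the result was not tested.

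Single members showed the same pattern. miR-127-3p, the most abundant, stood at 4177, 3586 and 8811 CPM at P1 and at 2364, 3888 and 3682 CPM at P3. Its ages overlapped (-0.74 ± 0.42, adjusted p = 0.422). miR-411-3p stood at 73.5, 55.8 and 148 CPM at P1 and at 32.6, 42.4 and 44.2 CPM at P3, without overlap (-1.22 ± 0.35, adjusted p = 0.163). Without library 3 at P1 its difference was -0.70. miR-409-3p stood at 101, 89.8 and 220 CPM at P1 and at 67.0, 61.6 and 63.3 CPM at P3 (-1.10 ± 0.30, adjusted p = 0.163), or -0.57 without that library. For both, each of the remaining P1 libraries was still above every P3 library. miR-134-5p, known in neurons, stood at 39.5, 44.0 and 69.3 CPM at P1 and at 15.9, 30.4 and 26.9 CPM at P3 (-1.06 ± 0.31, adjusted p = 0.163). Its difference was -0.77 without library 3 at P1 and -0.84 without library 1 at P3. Without both it was -0.56, against -0.63 for miR-409-3p and -0.61 for miR-411-3p.

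The other Dlk1-Dio3 miRNAs among the 10 chosen as lower were miR-540-3p, miR-299a-3p, miR-679-5p and miR-337-3p, with log2 differences of -0.91, -0.78, -0.99 and -0.97. Without library 3 at P1 these were -0.62, -0.52, -0.69 and -0.50. miR-540-3p stood at 15.1, 16.1 and 26.1 CPM at P1 and at 10.9, 9.05 and 10.5 CPM at P3. miR-337-3p stood at 3.98, 3.92 and 8.51 CPM at P1 and at 2.98, 2.59 and 2.85 CPM at P3. In each of them library 3 was the highest at P1.

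**Figure D4:**
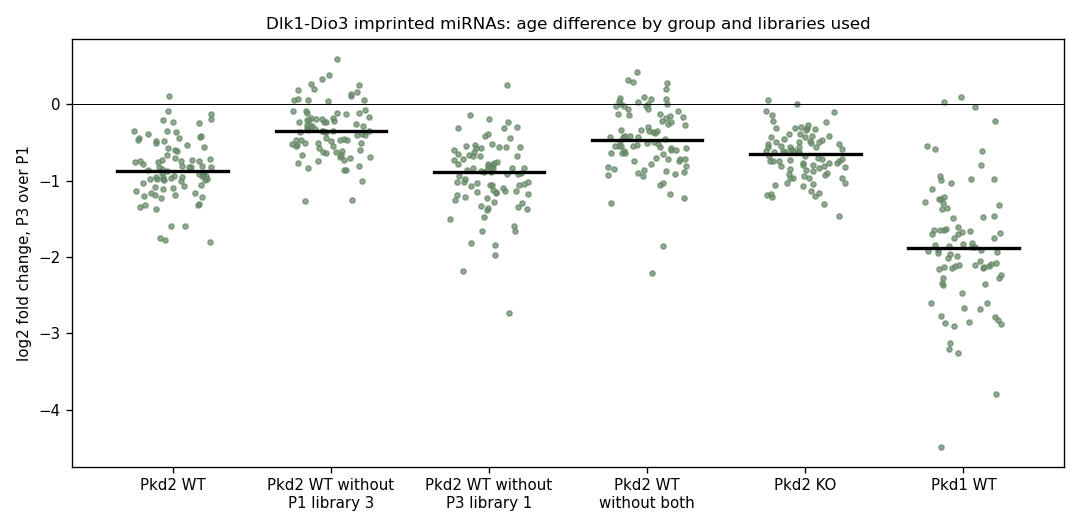
Each point is a tested Dlk1-Dio3 miRNA, placed by its log2 fold change of P3 over P1 (y axis), for the Pkd2 WT libraries, for the same without library 3 at P1, without library 1 at P3 and without both, for Pkd2 KO and for Pkd1 WT. Bars are medians, at -0.87 for all Pkd2 WT libraries, -0.35 without library 3 at P1, -0.65 in Pkd2 KO and -1.88 in Pkd1 WT (-0.45 without library 1 at P1 of that line).

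The miRNAs of the other imprinted loci, Igf2, H19 and Mest, were mostly lower at P3 as well. Of 6 tested, 5 were lower and 4 of these had an unadjusted p under 0.05 without overlap. The median was -0.66, and without library 3 at P1 it was -0.57 with 3 such members. miR-335-3p, from Mest, stood at 2091, 2082 and 1898 CPM at P1 and at 1488, 1230 and 1275 CPM at P3 (-0.60 ± 0.15, adjusted p = 0.106). miR-483-5p, from Igf2, stood at 12.8, 11.5 and 14.6 CPM at P1 and at 6.12, 8.25 and 7.77 CPM at P3 (-0.81 ± 0.25, adjusted p = 0.184). Its other arm, miR-483-3p, stood at 32.6, 31.1 and 36.5 CPM at P1 and at 15.2, 17.6 and 19.02 CPM at P3. The exception was miR-335-5p, the other arm of the Mest hairpin, which stood at 1755, 1522 and 1605 CPM at P1 and at 4835, 1181 and 1080 CPM at P3. Only library 1 at P3 put its mean above that of P1.

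miR-669f-5p, one of many miR-669 copies in an intron of Sfmbt2, was the remaining miRNA among the 10 chosen as lower. It stood at 1.76, 1.86 and 1.31 CPM at P1 and at 0.910, 0.664 and 0.991 CPM at P3 (-0.94 ± 0.23, adjusted p = 0.106). Because its family consists of near-identical copies, reads may have been split between them.

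miR-10a-5p and miR-10b-5p, encoded in Hox clusters, were the most abundant miRNAs, and their share of reads decides how much is left for all others. The share was 49.7%, 44.3% and 45.5% at P1 and 71.9%, 37.03% and 38.51% at P3. Libraries 2 and 3 at P3 lay below all P1 libraries and library 1 above all of them. The means differed by 2.65 percentage points (46.5% at P1, 49.2% at P3), with p = 1 in an exact two-sided permutation test, for which 3 against 3 libraries cannot give less than 0.1. Without library 1 at P3 the difference was -8.73 points. The 95% Wilson intervals were at most 0.0405 points wide, so counting error was far smaller than the spread. miR-143-3p, a smooth muscle miRNA, went the other way in that library, at 24490 CPM against 59390 and 61540 CPM in libraries 2 and 3, with 36530 to 42780 CPM at P1.

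The same step in age was also measured in KO kidneys of the Pkd2 line, with no library shared between the comparisons. Per the study's methods the controls were littermates of the same age, so WT and KO libraries of one age may share litters. There, no miRNA was called by edgeR at an adjusted p under 0.05 and 106 had an unadjusted p under 0.05, 43 higher (5.76%) and 63 lower (8.45%). The 10 named miRNAs that were higher at P3 in WT were all higher in KO, 6 of them at an unadjusted p under 0.05. The 10 that were lower were all lower in KO, 5 of them at that p. Of the 47 miRNAs higher at an unadjusted p under 0.05 in WT, 43 had the same direction in KO, and of the 59 lower ones 58 did. Over all 746 miRNAs, 277 of the 407 higher and 281 of the 339 lower in WT had the same direction in KO.

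By group, the Dlk1-Dio3 miRNAs had a median of -0.65 in KO, with 84 of 86 lower and 20 of these at an unadjusted p under 0.05. The summed level was 16450, 7051 and 11570 CPM in the KO libraries at P1 and 7360, 9885 and 7235 CPM at P3, so the ages overlapped. KO library 1 at P1, the highest, also had 194.5 CPM of the endocrine list against 52.7 and 45.0 CPM in libraries 2 and 3. Without it the median was -0.53, with 78 of 86 lower and 7 of these at that p. The nephron tubule miRNAs had a median of 0.76 with 6 of 9 higher at that p. The Igf2, H19 and Mest miRNAs had a median of -1.01 with 5 of 6 lower at that p. miR-802-5p stood at 49.3, 30.9 and 50.9 CPM in KO at P1 and at 124, 88.3 and 99.4 CPM at P3. The miR-200 family differed from WT in its counts, with 7 of 10 higher and none of these at an unadjusted p under 0.05, while 1 was lower at that p. This difference of counts was not itself tested. The miRNAs inside snoRNAs and scaRNAs were higher in KO in 15 of 18, 4 of them at that p. Of the other 604 with a position, 274 were higher in KO, 32 of them at that p.

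When the difference between the age effects of KO and WT was tested, no miRNA was called by edgeR at an adjusted p under 0.05, nor by DESeq2 (12 at an unadjusted p under 0.05). By edgeR at an unadjusted p under 0.05 there were 11 of 746 (1.47%), fewer than the 37.3 that chance would give on average. The lowest p-values belonged to miR-3084-5p, miR-429-5p and miR-5121. miR-3084-5p stood in KO at 0.308, 0.395 and 0.193 CPM at P1 and at 0.385, 0.325 and 0.302 CPM at P3, so that the KO libraries at P1 were above the WT libraries at P1. miR-5121 stood in KO at 1.60, 1.84 and 1.66 CPM at P1 and at 2.73, 2.64 and 1.99 CPM at P3, a difference of 0.53 against 1.73 in WT. miR-429-5p was lower at P3 in KO (-0.94) and higher in WT (0.82), at about 1 CPM.

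**Figure D5:**
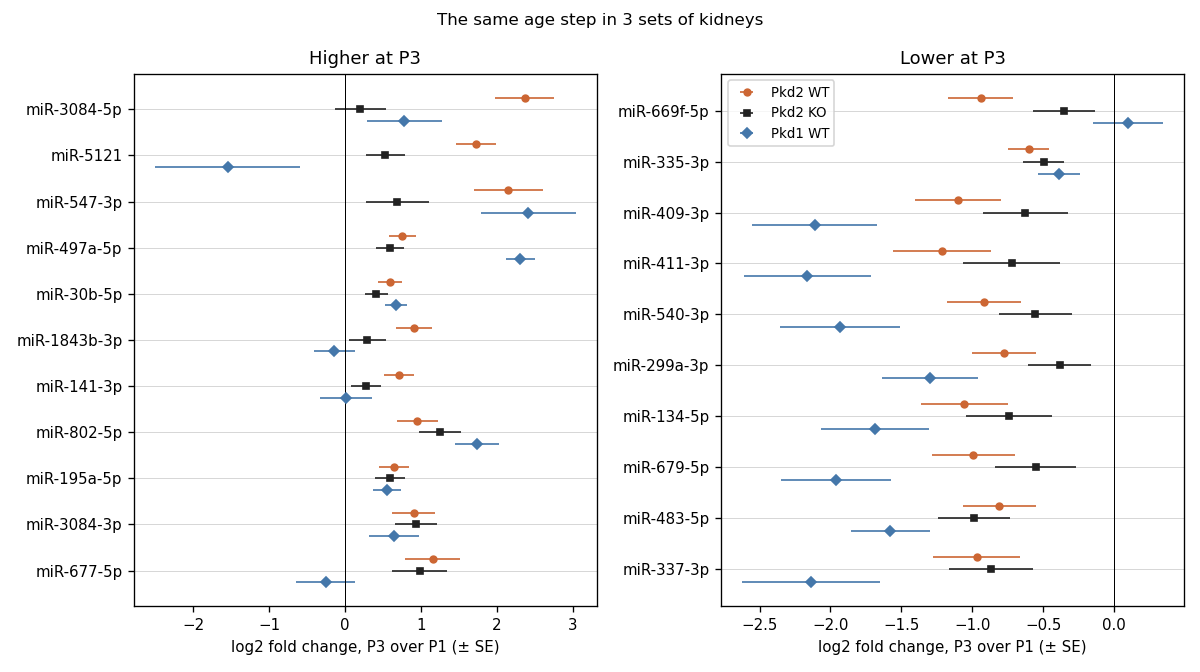
The log2 fold change of P3 over P1 with its SE (x axis) of each miRNA named for the age comparison, in Pkd2 WT (circles), Pkd2 KO (squares) and Pkd1 WT (diamonds), 3 libraries for each age. All Pkd2 KO values shown have the sign of Pkd2 WT, whereas miR-5121, miR-1843b-3p, miR-677-5p and miR-669f-5p have the opposite sign in Pkd1 WT.

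WT kidneys of the Pkd1 line at the same ages had 178 of 775 miRNAs (23.0%) called at an adjusted p under 0.05 in a fit of all 36 libraries, 113 of them lower (14.6%). In the same fit the Pkd2 line had 1. Library 1 at P1 of the Pkd1 line stood apart, with 1799 CPM of skeletal and cardiac muscle miRNAs against 20.2 to 60.6 CPM in the other 5 libraries. It also had 413.8 CPM of the endocrine list against 28.7 to 84.1 CPM. Without this library, a fit chosen after seeing the data, 81 miRNAs were called. Of the 10 miRNAs chosen as higher at P3 in the Pkd2 line, 7 had the same direction in the Pkd1 line and 5 were called there, or 7 and 3 without the library. Of the 10 lower ones, 9 had the same direction and 8 were called, or 10 and 3 without it. With all libraries, 262 of the 407 miRNAs higher in the Pkd2 line had the same direction in the Pkd1 line, 56 of them called. Of the 339 lower in the Pkd2 line, 245 had the same direction, 93 of them called. The chosen miRNAs were not tested against these counts.

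The Dlk1-Dio3 median was -1.88 in the Pkd1 line, with 60 members called lower. The summed level of the domain was 44090 CPM in library 1 at P1, against 8128 and 6819 CPM in libraries 2 and 3 and 5150 to 5623 CPM at P3. Without library 1 the median was -0.45 and 4 members were called lower. The muscle list moved with it, at a median of -4.24 with 7 of 8 called lower, as did the endocrine list (-2.18, 2 of 4 called lower). The liver list had a median of -2.73 (none of 2 called) but did not follow library 1. Its sum at P1 was 33.1, 5.57 and 46.5 CPM in libraries 1, 2 and 3. The part of these lists in the result was not tested. miR-5121 went the other way in the Pkd1 line, by -1.55 (adjusted p = 0.276), and the miRNAs inside snoRNAs and scaRNAs had a median of 0.02.

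The age effects of the lines differed for 10 of the 775 miRNAs (1.29%) at an adjusted p under 0.05. The lowest p belonged to miR-101a-5p, which is processed from the 5′ arm of the miR-101a hairpin. Its ages overlapped in the Pkd2 line, at 9.76 to 10.4 CPM at P1 and 8.58 to 10.7 CPM at P3 on the scale of the joint fit. In the Pkd1 line it stood at 2.497 to 2.891 CPM at P1 and at 8.95 to 12.1 CPM at P3. The difference of age effects was -1.999 ± 0.291 (log2, SE, adjusted p = 0.00015, edgeR).

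miR-497a-5p differed in the same way. It went from 120 to 127 CPM at P1 to 201 to 206 CPM at P3 in the Pkd2 line, and from 37.6 to 53.4 CPM to 211 to 258 CPM in the Pkd1 line. The libraries of the lines thus lay apart at P1 and close together at P3. miR-378b was the converse, at 20.3 to 21.7 CPM at P1 in the Pkd1 line against 4.13 to 4.62 CPM in the Pkd2 line, with 2.85 to 5.95 CPM in both lines at P3.

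The P7 libraries give the levels a few days later, from WT kidneys of the same line. miR-497a-5p stood at 348 to 420 CPM, miR-802-5p at 171 to 220 CPM and miR-194-5p at 867 to 1112 CPM, all above their P3 ranges. miR-335-3p stood at 590 to 786 CPM and miR-483-5p at 2.23 to 3.07 CPM, both below theirs. The Dlk1-Dio3 sum at P7 was 4015, 4291 and 5361 CPM, below each library of P3 and P1. miR-5121 was the exception among these, being back at its P1 level.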

How the data were processed

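Small RNA reads of 36 kidney libraries had been trimmed of adaptor and kept above 17 bases by the authors, who counted them with miRDeep2 against miRBase release 21 and the mouse genome (mm10). The deposited values are raw read counts per mature miRNA and precursor, neither filtered nor normalised. Where a mature miRNA had several precursor rows (83 of 1915), the row with the highest total over the 36 libraries was kept. The miRDeep2 version is not given in the sources used here.

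The 18 libraries of the Pkd2 line (6 groups of 3, 12 residual degrees of freedom) were fitted together with edgeR 4.0.16 in R 4.3.3, using TMM factors, 1 term per group and the two-sided quasi-likelihood F-test. Adjusted p-values are Benjamini-Hochberg values across the 746 miRNAs that reached 10 counts in 3 or more libraries. Each SE is the size of the log2 difference over the square root of F. It therefore draws on the spread within all groups of the fit, not only those compared. Excluded miRNAs held at most 0.00699% of the reads of a library. Differences between lines were tested in a fit of 36 libraries over 775 miRNAs. DESeq2 1.42.0 and limma 3.58.1 served as alternatives. The scripts were tested on simulated data. Loci were annotated with GENCODE vM21. Libraries carry no molecular identifiers, so intervals cover counting error only.

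The miRNAs named were up to 10 in each direction, called or, where fewer were called, filled by unadjusted p under 0.05, provided they averaged 10 counts or more and the ages did not overlap. To these were added the 6 most abundant, the 3 of lowest p for each difference of age effects, and the called or most abundant members of each list. The set of miRNAs inside snoRNAs, and miR-483-3p, miR-335-5p, miR-1843a-3p, miR-200a-3p and the other miRNAs sharing a seed, were chosen after their values were seen. The comparison, the members and the lists were chosen with earlier results of these data known.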

Additional observations from a re-analysis of the deposited data

Results flagged for a closer look

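The change between P1 and P3 differed between WT kidneys of the Pkd2 and the Pkd1 line, by the test of the difference itself, for 10 miRNAs. Log2 differences of age effects are Pkd2 minus Pkd1. They were -1.999 for miR-101a-5p, -1.59 for miR-497a-5p, -1.24 for miR-339-3p, -1.23 for miR-30c-1-3p and -0.89 for miR-143-5p. In these 5 the difference of P3 minus P1 was larger in the Pkd1 line. They were 2.32 for miR-378b, 4.70 for miR-3970, 5.44 for miR-3470a, 4.84 for miR-3470b and 0.87 for miR-24-3p. miR-24-3p was higher at P3 in the Pkd2 line by 0.37 and lower in the Pkd1 line by 0.50 on the log2 scale. miR-3470a and miR-3470b rested on a pair of Pkd1 libraries at P1, with 20.96 and 37.93 CPM of miR-3470a in libraries 2 and 3 against 1.18 CPM in library 1. miR-3970 was close to the detection floor in the Pkd2 line (0.067 to 0.329 CPM) and at P3 in the Pkd1 line (0 to 0.185 CPM). Its difference rested on 1.14 to 2.06 CPM at P1 in the Pkd1 line. Line, litter and batch cannot be told apart in this design.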

How the results depend on the processing

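Of the 2 called miRNAs, both were also called with RLE factors, with the replicate block, with precursor rows summed, without a filter and by limma-voom. The count was 1 with library totals alone (a different miRNA, miR-409-5p, lower), 17 by DESeq2 (8 higher, 9 lower), 4 with the 9 WT libraries alone, 0 with the 6 compared libraries alone (71 at unadjusted p under 0.05) and, chosen after seeing the data, 0 without both libraries that stood apart (66). Leaving out each library gave 0 to 3, with 0 (73 at unadjusted p under 0.05) without library 3 at P3 and 1 (41) without library 3 at P1. The 42 miRNAs past 2-fold at unadjusted p under 0.05 became 76 without a filter, 22 with the 6 libraries alone, 26 without both libraries, and 16 to 65 with 1 library left out (16 without library 3 at P1). The 10 differences between the lines became 1 with library totals alone, 19 by DESeq2 and 4 to 15 with 1 library left out. The difference in KO minus WT stayed at 0 calls in all 16 alternatives. The difference of the miR-10 share ran from -8.73 to 8.71 points with 1 library left out. Each of the 21 miRNAs named for the age comparison kept its direction under every alternative that gave it a value.

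Replicate numbers are shared between groups. Same-numbered P1 and P3 libraries correlated in their deviations by 0.256, 0.102 and 0.0383, against -0.315 to 0.122 for libraries of different numbers. The same-numbered libraries were not taken as pairs in the main fit. With the replicate block 2 miRNAs were called, 31 passed 2-fold at unadjusted p under 0.05 and 9 differed between the lines. The cause of these changes was not tested. With 3 libraries per age the median SE was 0.31 (log2), and a difference of that size could not be told from the spread between libraries.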
